A study of Homo sapiens with 6 samples.

Results

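Nucleoporins, the proteins that build the nuclear pore, and the receptors that carry cargo through it were measured as transcripts after siRNA against HOTAIR. The set was chosen by gene name. It holds protein-coding genes whose symbol begins with NUP, IPO or XPO plus a digit, or with KPNA, KPNB or TNPO, together with CSE1L, RAN, RANBP2, RANGAP1, RCC1, TPR, NDC1, POM121, AAAS, SEH1L, RAE1, NXF1 and NXT1, and without XPO5. This rule finds 58 genes among the 19589 features of the deposited comparison, and it uses no measured value.

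The nuclear pore complex is a ring embedded in the nuclear envelope, with a scaffold of Y-shaped complexes on both faces, an inner ring, a central channel lined with phenylalanine-glycine repeats, filaments on the cytoplasmic side and a basket on the nuclear side. Importins bind cargo with a nuclear localization signal in the cytoplasm and release it when the GTPase Ran, loaded with GTP, binds them in the nucleus, whereas exportins bind their cargo together with Ran-GTP and release it outside. RCC1 loads Ran with GTP on chromatin and RANGAP1 makes it hydrolyse GTP at the cytoplasmic face, and bulk mRNA leaves by another route, on the dimer of NXF1 and NXT1.

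RNA sequencing followed removal of ribosomal RNA from total RNA, in libraries labelled HepG2, a line from a liver tumour, after transfection with siRNA against the long non-coding RNA HOTAIR (siHOTAIR) or with a negative control siRNA (siNC). The labels describe 3 libraries in each group, and they state neither the siRNA sequence nor the time after transfection. The authors' deposited table gives a mean normalized count, a log2 fold change of siHOTAIR over siNC and its p-value for each feature. Its means are whole-number sums of reads from 5 libraries, 3 siHOTAIR and 2 siNC, and solving these sums returned the reads of all 58 genes in each library.

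The 5 libraries are called siHOTAIR A, B and C and siNC A and B here, in no labelled order. They held 7513985, 6059365 and 5742455 recovered reads in siHOTAIR and 7450505 and 5711719 in siNC. These totals leave out 185 features with a mean above 6000 and 73 without recovered reads, so full depth was higher. Precision is set by few libraries. HOTAIR had 72, 73 and 53 reads in the siHOTAIR libraries, against 241 and 134 in the siNC libraries, which is 37.9% of the siNC level after normalization. Of 20 hepatocyte markers, 12 have a row, and 10 of these, SERPINA1, TF, APOA1 and APOA2 among them, have a deposited mean under 1. The other 8, among them ALB and AFP, were not analysed here. Of 10 markers of other epithelia, 7 have a row, with deposited means from 0.173 for KRT14 and 1.33 for TP63 to 2605 for KRT17 and 11514 for KRT7, and of 5 tested KRT17 and NKX2-1 fell and none rose. The hepatocyte markers do not bear out the labelled cell type, so the libraries are named by their label only. Fibroblast markers, which sum over 6 of 7 genes, stood at 2151, 2315 and 2546 normalized counts in siHOTAIR libraries and at 1242 and 1243 in siNC libraries. COL1A1 alone gave 1755, 1929 and 2144 of these in siHOTAIR and 1051 and 1078 in siNC libraries. COL1A1, PDGFRB and DCN rose, COL3A1 and THY1 did not pass, and LUM had no adjusted p. Endothelial markers, 4 of 5 with a row and mostly CDH5, which did not pass, summed to 91.0 to 121 in siHOTAIR and to 73.7 and 76.2 in siNC libraries. Of 4 leukocyte markers 2 have a row, and CD68, which fell, had 143, 140.2 and 117 in siHOTAIR and 177 and 197 in siNC libraries, while CD14 had a mean of 4.05 and did not pass. The part of these markers in the results below was not tested, and in bulk RNA fewer cells of a type and less RNA per cell cannot be told apart. The labels do not state whether the libraries of a group were grown as separate cultures, and p-values then cover only the spread among libraries, possibly a technical one.

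Transcripts of the pore and of its transport receptors moved in both directions, by small amounts. Of the 57 genes that the authors' deposited table gives an adjusted p, 16 rose and 21 fell, with adjusted p-values under 0.05, and 20 did not pass. That is 64.9% called, where 40.4% of all 14597 features were called (20% rose and 20.4% fell). These genes are well expressed, with a median of the deposited means of 836 normalized counts against 199 over all tested features, and deeper features are called more often. Among features with a mean of at least 100, 35 of 53 members were called (15 rose, 20 fell), where 52.6% of all such features were called, 27.0% up and 25.6% down. In 41 of the 58 genes the siHOTAIR and siNC libraries did not overlap, 22 with all siHOTAIR libraries lower and 19 with all higher, where 63.0% of features with recovered reads did not overlap (32.0% lower and 31.0% higher). All 37 called members were among the 41. By limma-voom on the recovered reads 15 members rose and 20 fell, where 47.2% of features were called, 22.8% up and 24.4% down.

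The changes were small. Called members changed by a median of 0.356 in size (log2), against 0.537 for all called features. These sizes were not compared at like depth, as members had a median mean of 836 normalized counts against 199 over all tested features. The median log2 fold change over the 57 genes was -0.041, against 0.0069 over all features. Among called members, 2 changed at least 2-fold in the authors' deposited table, the basket protein TPR (-1.03) and NUP210L (1.24), a relative of NUP210 with a mean of 13.5. With a size of at least 0.5 on the log2 scale asked as well, 3 members rose and 7 fell, where 22.0% of features passed (10.1% up and 11.9% down). At an adjusted p under 0.01, 11 rose and 16 fell, where 30.9% of features passed (15.3% up and 15.6% down). TPR is the single member in the authors' own list of 766 differential genes. That list asks for a change of at least 2-fold and draws on the same deposited fold changes, so it is not separate evidence.

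**Figure D1:**
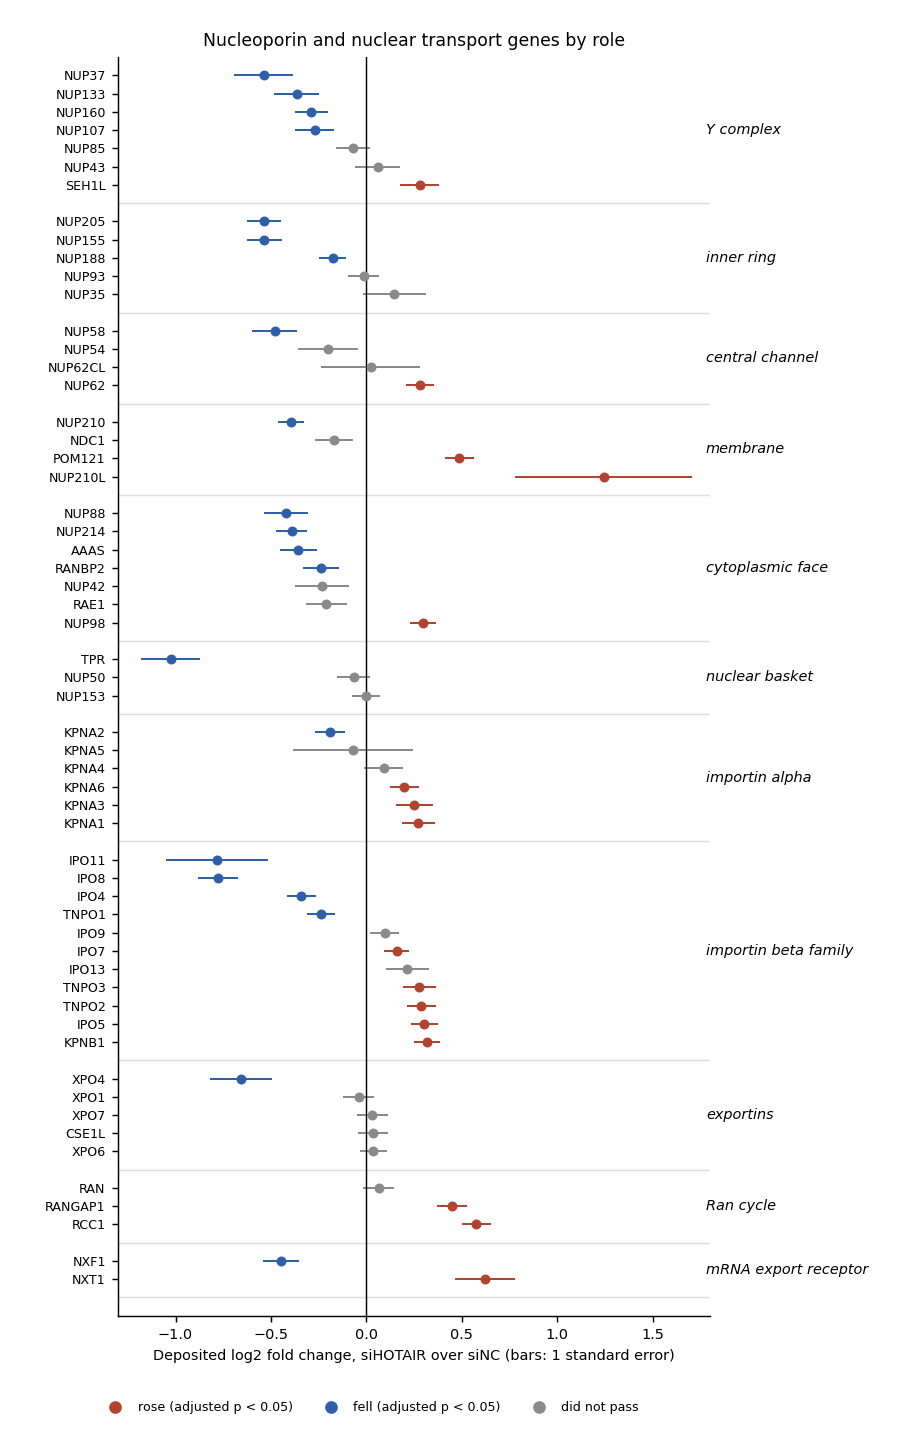
Log2 fold changes of siHOTAIR over siNC in the authors' deposited table for the 57 genes with an adjusted p, grouped by role and ordered within each role, with bars of 1 standard error. Red points rose, blue points fell and grey points did not pass; of the 21 blue points, 4 are in the Y complex, 3 in the inner ring, 4 at the cytoplasmic face and 4 in the importin beta family, and TPR at -1.03 and NUP210L at 1.24 lie farthest out.

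Split by place, the structural proteins of the pore and the soluble receptors gave these counts. Of 30 pore proteins tested, 5 rose, 14 fell and 11 did not pass, with a median log2 fold change of -0.206. Of 22 importins and exportins tested, 8 rose, 6 fell and 8 did not pass, with a median of 0.0641. Of all features with a mean of at least 100, the level of most members, 27.0% rose and 25.6% fell, and no test was made of the difference between the pore proteins and the receptors.

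**Figure D2:**
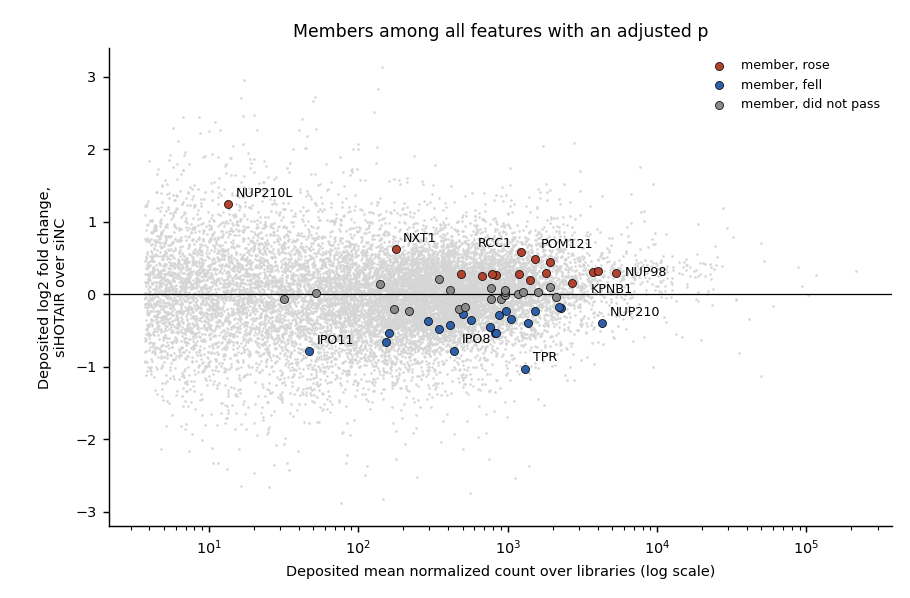
Deposited log2 fold change of siHOTAIR over siNC against the deposited mean normalized count (log axis) for all 14597 features with an adjusted p (light grey) and the 57 genes of the pore and its receptors (coloured by call). The members lie mostly to the right, at means up to 5281, and within the band of other features of similar mean.

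The Y complex is the outer scaffold of the pore and coats the curved membrane. Of its 7 genes within the naming rule, NUP37, NUP160, NUP133 and NUP107 fell, SEH1L rose and NUP85 and NUP43 did not pass. Its subunits outside the rule, named here after their values were seen, are AHCTF1 (ELYS), which fell (-0.30 in the authors' deposited table, adjusted p = 0.0107), and SEC13, which did not pass (-0.13, adjusted p = 0.241). NUP96, made from the NUP98 transcript, has no count of its own. NUP37, a peripheral subunit that sits on NUP160, had 147, 137 and 122 normalized counts in the siHOTAIR libraries and 198 and 199 in the siNC libraries. All siHOTAIR values were below both siNC values, which were nearly equal. In the authors' deposited table NUP37 has -0.54 on the log2 scale (SE 0.155, adjusted p = 0.00215), and 68.2% of the siNC mean remained. NUP107, in the stem of the Y, had 486, 426 and 489 in siHOTAIR and 550.1 and 580.4 in siNC libraries. Its fold change in the authors' deposited table was -0.27 (SE 0.101, adjusted p = 0.0217). This call rests on single libraries, since limma-voom without siHOTAIR B gave -0.21 (adjusted p = 0.135). Without siNC B limma-voom gave -0.24. NUP133, which senses membrane curvature, and NUP160 fell to 77.4% and 81.8% of their siNC means, with log2 fold changes of -0.36 and -0.29 in the authors' deposited table. Without siNC A, NUP160 had -0.22 in limma-voom (adjusted p = 0.103).

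SEH1L, a subunit shared with the GATOR2 complex of mTORC1 signalling, went the other way within this complex. It had 505, 547 and 523 normalized counts in siHOTAIR libraries and 431 and 432 in siNC libraries, with no overlap. The log2 fold change in the authors' deposited table was 0.28 (SE 0.10, adjusted p = 0.0162), and in limma-voom it was 0.25 without siHOTAIR B (adjusted p = 0.076) and 0.28 without siNC A (adjusted p = 0.0671). The 2 subunits not passing had intervals around 0, from -0.25 to 0.10 for NUP85 and from -0.17 to 0.29 for NUP43 (95% intervals from the deposited SE).

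In the inner ring, which anchors the channel to the membrane, the large scaffold proteins NUP205, NUP155 and NUP188 fell and none rose. NUP205, a large helical solenoid that binds NUP93, had 750.2, 657 and 666 normalized counts in siHOTAIR libraries and 1034 and 978 in siNC libraries. NUP155, which links the ring to membrane nucleoporins, had 742, 639 and 739 in siHOTAIR libraries and 1067 and 985 in siNC libraries. In both genes the highest siHOTAIR library was far below the lowest siNC library, relative to the spread within each group. The authors' deposited table has NUP205 at -0.54 on the log2 scale (SE 0.0888, adjusted p = 1.73e-08) and NUP155 at -0.54 (SE 0.0906, adjusted p = 3.9e-08). NUP188, a paralogue of NUP205, fell to 88.5% of its siNC mean (-0.18, adjusted p = 0.0317 in the authors' deposited table), but limma-voom on the recovered reads gave an adjusted p of 0.0554, or 0.277 without siHOTAIR B and 0.267 without siNC A. NUP188 overlaps SH3GLB2, which rose (0.298, adjusted p = 0.000206 in the authors' deposited table). NUP93, the binding partner of NUP205 and NUP188, did not pass, with -0.01 and a 95% interval from -0.17 to 0.14. The remaining member, NUP35, had 0.15 in the authors' deposited table (adjusted p = 0.513), although its siHOTAIR and siNC libraries did not overlap.

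The central channel is filled by the NUP62 complex, whose repeats form the barrier that receptors pass. NUP62, its core subunit, had 1247, 1265 and 1309 normalized counts in siHOTAIR libraries, against 1046 and 1049 in siNC libraries. NUP58, which forms the complex with NUP62 and NUP54, had 330.1, 276 and 286 in siHOTAIR libraries and 431 and 403 in siNC libraries. NUP62 and NUP58 moved in opposite directions, each with no overlap between groups. In the authors' deposited table NUP62 rose by 0.28 (SE 0.0748, adjusted p = 0.000785) and NUP58 had -0.48 (SE 0.117, adjusted p = 0.000212). The third subunit, NUP54, overlapped between groups and had -0.20 (adjusted p = 0.318), and NUP62CL, a NUP62-like gene with 71, 44 and 44 reads in siHOTAIR and 70 and 40 in siNC libraries, had 0.02 (adjusted p = 0.957) in the authors' deposited table.

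Of the 4 membrane-anchored members, POM121 and NUP210L rose, NUP210 fell and NDC1 did not pass. POM121, which is needed for pores to assemble in the closed envelope of interphase, had 1642, 1727 and 1796 normalized counts in siHOTAIR libraries and 1256 and 1192 in siNC libraries. NUP210, the large glycoprotein whose body lies in the lumen of the envelope, had 3738, 3744 and 3942 in siHOTAIR libraries and 5127 and 4889 in siNC libraries. Both separated the groups by several times the spread between libraries. The authors' deposited table has POM121 at 0.49 (SE 0.0740, adjusted p = 6.55e-10) and NUP210 at -0.39 (SE 0.0676, adjusted p = 5.63e-08). POM121 has a near-identical copy, POM121C, which also rose (0.33 in the authors' deposited table, adjusted p = 0.00173), and the counting may split reads between them. NUP210L, best known from testis, had 19, 20 and 15 reads in siHOTAIR and 7 and 6 in siNC libraries. The value of 1.24 in the authors' deposited table (SE 0.466, adjusted p = 0.0216) is the largest among the members, rests on few reads, and had an adjusted p of 0.0818 in limma-voom without siNC A. It lies under the mean of 20 asked of named genes and is given here because it was seen to be the largest.

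On the cytoplasmic face, where filaments receive cargo and remodel exported mRNA, NUP214, AAAS, NUP88 and RANBP2 fell, NUP98 rose, and RAE1 and NUP42 did not pass. NUP88, which with NUP214 docks the export receptor XPO1, had 401, 368 and 318 normalized counts in siHOTAIR libraries and 514 and 459 in siNC libraries. NUP98, a repeat-bearing nucleoporin made from a precursor that also yields the scaffold subunit NUP96, had 5863, 5692 and 5561 in siHOTAIR libraries and 4791 and 4496 in siNC libraries. It was the most abundant of the 58 transcripts by mean count. In the authors' deposited table NUP88 had -0.42 (SE 0.115, adjusted p = 0.00113) and NUP98 had 0.30 (SE 0.0690, adjusted p = 0.000103). NUP88 overlaps RABEP1, which also fell (-0.27 in the authors' deposited table, adjusted p = 0.00867).

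NUP214 had the smallest p of this face, with 76.2% of the siNC mean remaining and -0.39 in the authors' deposited table (adjusted p = 1.6e-05). AAAS (aladin, mutated in triple A syndrome) fell to 77.9% of its siNC mean. RANBP2, the filament protein that holds sumoylated RANGAP1 at the pore, fell to 85.1% (-0.24, adjusted p = 0.0333 in the authors' deposited table), a call that limma-voom lost without siNC A (-0.08, adjusted p = 0.612) and without siHOTAIR C (-0.19, adjusted p = 0.0992). RANBP2 also has the near-identical RGPD copies, with which it may share reads. The span recorded for RANBP2 in the gene reference used here reaches over CCDC138, EDAR, SH3RF3-AS1, SH3RF3, SEPTIN10 and SOWAHC. Whether any of these overlaps RANBP2 in the authors' annotation is not known, and sharing of reads with them was not tested. SEPTIN10 and SOWAHC had -0.798 and -0.672 in the authors' deposited table (adjusted p = 9.86e-11 and 0.000709), and the others did not pass. RAE1, the mRNA export factor that binds NUP98, and NUP42 had -0.21 and -0.23 in the authors' deposited table (adjusted p = 0.112 and 0.194).

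The nuclear basket held the largest fall of the whole set. TPR, the coiled-coil protein that forms the basket filaments, had 913, 1003 and 852 normalized counts in siHOTAIR libraries and 2137 and 1665 in siNC libraries. The siNC libraries differed by more than the siHOTAIR libraries did among themselves, and both still lay far above them. TPR stood at 48.5% of its siNC mean, 923 ± 76.2 (SD, n = 3) in siHOTAIR and 1901 ± 334 (SD, n = 2) in siNC libraries, and the authors' deposited table gives -1.03 (SE 0.154, adjusted p = 4e-10). NUP153, which tethers TPR to the pore, had 1175, 1143 and 1178 in siHOTAIR libraries and 1189 and 1144 in siNC libraries. These overlapped, with a log2 fold change of -0.002 in the authors' deposited table and a 95% interval from -0.15 to 0.14. NUP50, which helps to displace cargo from importin alpha at the basket, had -0.07 in the authors' deposited table (adjusted p = 0.595). A fall was thus called in 1 of the 3 basket genes.

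**Figure D3:**
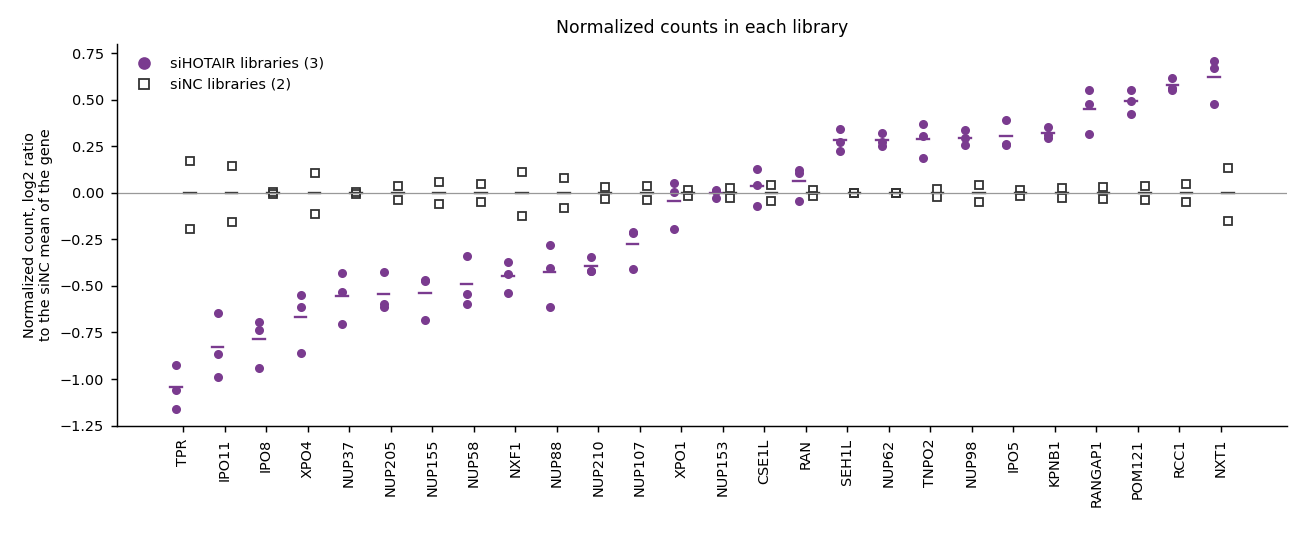
Normalized counts of the 26 named genes in each recovered library, as the log2 ratio to the mean of the siNC libraries for that gene; filled circles are the 3 siHOTAIR libraries, open squares the 2 siNC libraries and short lines their means. Genes run by their deposited fold change, from TPR at the left to NXT1 at the right; XPO1, NUP153, CSE1L and RAN overlap between groups and the other genes do not.

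Importin alpha proteins are the adaptors that read classical nuclear localization signals. Of 6 tested, KPNA1, KPNA3 and KPNA6 rose, KPNA2 fell, and KPNA4 and KPNA5 did not pass; the seventh, KPNA7, had 4, 4 and 3 reads in siHOTAIR and 4 and 2 in siNC libraries and no adjusted p. KPNA1 had the smallest p, at 121% of its siNC mean (0.27 in the authors' deposited table, adjusted p = 0.00501). KPNA3 and KPNA6 had 0.25 and 0.20 in the authors' deposited table (adjusted p = 0.0254 and 0.0269). KPNA2, the member best known from proliferating cells, had -0.19 in the authors' deposited table (adjusted p = 0.0372). These calls are close to the threshold: in limma-voom without siHOTAIR B, KPNA3 had 0.19 (adjusted p = 0.178), KPNA6 0.23 (adjusted p = 0.0749) and KPNA2 -0.18 (adjusted p = 0.168). Without siNC A, KPNA3 had 0.26 (adjusted p = 0.0748), KPNA6 0.17 (adjusted p = 0.204) and KPNA2 -0.21 (adjusted p = 0.0812), and without siNC B they had 0.24, 0.23 and -0.18 (adjusted p = 0.0758, 0.0602 and 0.121). Without siHOTAIR C, KPNA6 had 0.15 (adjusted p = 0.155) and KPNA2 -0.14 (adjusted p = 0.162).

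In the importin beta family 5 genes rose, 4 fell and 2 did not pass. Of all features with a mean of at least 100, the level of these genes except IPO11, 27.0% rose and 25.6% fell. KPNB1, importin beta 1, which carries importin alpha and its cargo through the pore, had 4324, 4283 and 4457 normalized counts in siHOTAIR libraries and 3549 and 3429.6 in siNC libraries. IPO5, an importer of ribosomal proteins and histones, had 4262, 3888 and 3880 in siHOTAIR libraries and 3286 and 3206 in siNC libraries. Transportin TNPO2, an importer of RNA-binding proteins, had 1809.7, 1969.8 and 2059 in siHOTAIR libraries and 1569.8 and 1613 in siNC libraries. In each of these all siHOTAIR libraries were higher than both siNC libraries. By the authors' deposited table the log2 fold change was 0.32 for KPNB1 (SE 0.0659, adjusted p = 9.8e-06), 0.30 for IPO5 (SE 0.0710, adjusted p = 0.000102) and 0.29 for TNPO2 (SE 0.0749, adjusted p = 0.000546). TNPO3, the importer of serine-arginine-rich splicing factors, rose by 0.28 in the authors' deposited table (adjusted p = 0.00431).

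IPO7 had 0.16 in the authors' deposited table (adjusted p = 0.044), and this call was lost in all limma fits, with an adjusted p of 0.0792 over all libraries. Leaving out 1 library gave IPO7 0.12 (adjusted p = 0.285, without siNC B) to 0.20 (adjusted p = 0.0822, without siNC A).

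IPO8, the close paralogue of IPO7, was among the genes that fell most. IPO8 had 365, 353 and 306 normalized counts in siHOTAIR libraries and 587 and 592 in siNC libraries, which is 58.0% of the siNC mean. The siNC libraries agree within a few counts and no siHOTAIR library comes near them. Its log2 fold change in the authors' deposited table was -0.78 (SE 0.106, adjusted p = 5.64e-12), the smallest adjusted p among the members that fell. IPO11, an importer of ubiquitin-conjugating enzymes, had 40.7, 32.1 and 34.9 in siHOTAIR libraries and 70.3 and 57.1 in siNC libraries. It is a gene of few reads, and the authors' deposited value of -0.78 (SE 0.268, adjusted p = 0.0108) became -0.66 without siNC A in limma-voom (adjusted p = 0.0647). IPO4 fell to 78.9% of its siNC mean (-0.34 in the authors' deposited table, adjusted p = 4.02e-05). TNPO1, the paralogue of TNPO2, fell to 84.8% (-0.24 in the authors' deposited table, adjusted p = 0.00423), but had -0.20 without siNC A (adjusted p = 0.11) and -0.24 without siHOTAIR B (adjusted p = 0.063) in limma-voom. By the authors' deposited adjusted p, IPO7 with IPO8 and TNPO1 with TNPO2 each had 1 gene called up and 1 called down. These contrasts rest in part on the calls of IPO7 and TNPO1, which some or all limma fits lost. The paralogues NUP205 and NUP188 were both called down. IPO13 and IPO9 had 0.21 and 0.10 in the authors' deposited table and did not pass (adjusted p = 0.12 and 0.324).

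Of the 5 exportins, XPO4 fell and 4 did not pass. XPO1 (CRM1), the receptor for leucine-rich export signals, had 2224, 2148 and 1871 normalized counts in siHOTAIR libraries and 2165 and 2119.8 in siNC libraries. CSE1L, which returns importin alpha to the cytoplasm, had 1355, 1276 and 1181 in siHOTAIR libraries and 1278 and 1201 in siNC libraries. The groups overlapped in both. Their 95% intervals, from -0.20 to 0.11 for XPO1 and from -0.12 to 0.19 for CSE1L, both hold 0. XPO6, the exporter of actin, and XPO7 had 0.04 and 0.03 in the authors' deposited table (adjusted p = 0.724 and 0.8). XPO4, which exports the translation factor eIF5A and can also import, had 134, 108 and 128 in siHOTAIR libraries and 211 and 182 in siNC libraries. XPO4 stood at 63.0% of its siNC mean, and the authors' deposited table gives -0.66 (SE 0.162, adjusted p = 0.000271).

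In the Ran cycle the regulators rose and the GTPase itself did not pass. RAN had 1014, 1003 and 905 normalized counts in siHOTAIR libraries and 922 and 944.5 in siNC libraries, which overlap. RCC1, its exchange factor, had 1397, 1385 and 1448 in siHOTAIR libraries and 914 and 976 in siNC libraries. RANGAP1, its activating protein, had 1955, 2182 and 2301.5 in siHOTAIR libraries and 1535 and 1602 in siNC libraries. Neither RCC1 nor RANGAP1 overlapped between groups. The authors' deposited table has RCC1 at 0.58 (SE 0.0760, adjusted p = 7.35e-13), the smallest adjusted p of all members. It has RANGAP1 at 0.45 (SE 0.0791, adjusted p = 1.34e-07) and RAN at 0.06 (SE 0.0834, adjusted p = 0.59). RAN's 95% interval ran from -0.10 to 0.23, and RAN has several processed pseudogenes that could share its reads. RCC1 overlaps SNHG3, a small nucleolar RNA host gene that did not pass (0.0986, adjusted p = 0.305 in the authors' deposited table).

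Both subunits of the mRNA export receptor passed, in opposite directions. NXF1, the subunit that contacts mRNA and the channel, had 671, 704 and 627.5 normalized counts in siHOTAIR libraries and 984 and 836 in siNC libraries. NXT1, its small partner, had 220.0, 187 and 214 in siHOTAIR libraries and 121 and 148 in siNC libraries. The groups did not overlap in either gene. In the authors' deposited table NXF1 had -0.45 (SE 0.0947, adjusted p = 1.68e-05) and NXT1 had 0.62 (SE 0.157, adjusted p = 0.000369), the largest rise among members with a mean of at least 20.

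Ratios of partner transcripts within each library show these contrasts without any scaling between libraries. The pairs were picked after the values were seen and are a description with no test. NXT1 over NXF1 was 0.328, 0.266 and 0.341 in siHOTAIR libraries and 0.123 and 0.177 in siNC libraries, with a mean of 0.312 ± 0.0401 (SD, n = 3) in siHOTAIR and 0.15 ± 0.0379 (SD, n = 2) in siNC. RCC1 over RAN averaged 1.45 ± 0.128 in siHOTAIR and 1.01 ± 0.0293 in siNC libraries. At the basket, TPR over NUP153 was 0.777, 0.877 and 0.723 in siHOTAIR libraries and 1.8 and 1.46 in siNC libraries. TPR was thus the lower of the pair in every siHOTAIR library and the higher in both siNC libraries, on counts not divided by length.

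Among subunits of one complex, NUP62 over NUP58 averaged 4.31 ± 0.463 in siHOTAIR and 2.51 ± 0.124 in siNC libraries, and SEH1L over NUP37 averaged 3.91 ± 0.44 in siHOTAIR and 2.17 ± 0.00966 in siNC libraries (here and for the ratios after it, SD with n = 3 and n = 2). POM121 over NUP210 was 0.439, 0.461 and 0.456 in siHOTAIR libraries, against 0.245 and 0.244 in siNC libraries. NUP205 over NUP93 averaged 0.722 ± 0.0707 in siHOTAIR and 1.04 ± 0.0965 in siNC libraries. The ratio of the cytoplasmic partners NUP214 and NUP88, which both fell, was 2.88, 3.1 and 4.26 in siHOTAIR libraries and 3.14 and 3.43 in siNC libraries, and overlapped. Among receptors, IPO7 over IPO8 averaged 8.35 ± 0.741 in siHOTAIR and 4.31 ± 0.195 in siNC libraries, and KPNB1 over its adaptor KPNA2 averaged 2.03 ± 0.204 in siHOTAIR and 1.42 ± 0.0573 in siNC libraries. KPNA1 over KPNA2 averaged 0.418 ± 0.0205 in siHOTAIR and 0.302 ± 0.00782 in siNC libraries.

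**Figure D4:**
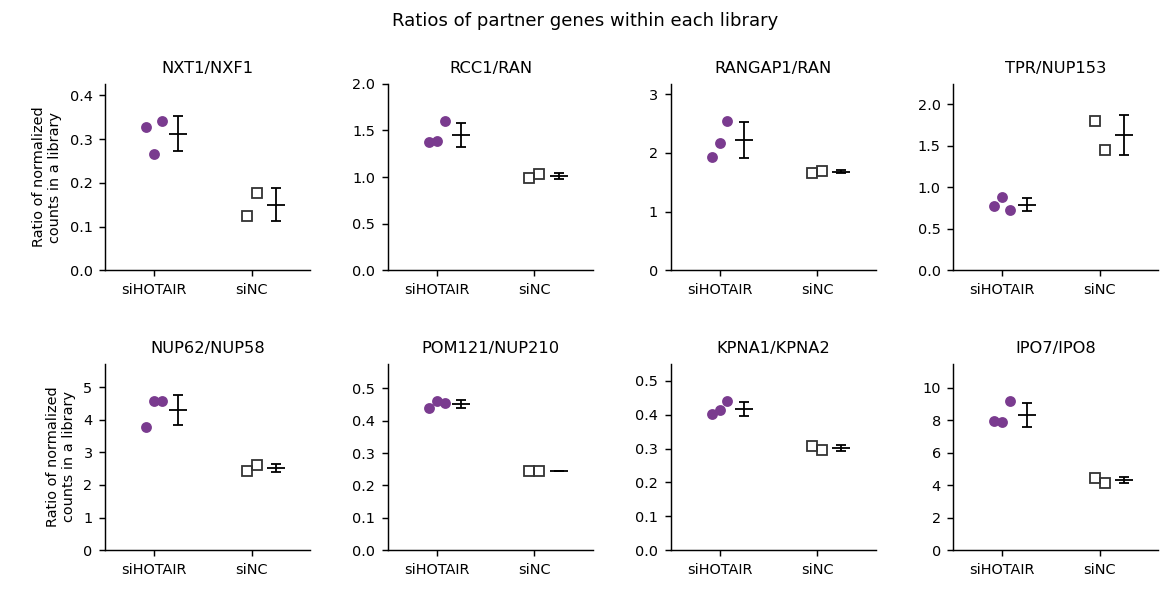
Ratio of normalized counts of 2 partner genes within each library, for 8 pairs, with the 3 siHOTAIR libraries as filled circles at the left and the 2 siNC libraries as open squares at the right of each panel, and the mean with its SD beside them. The pairs shown were picked after the values were seen, and in all 8 the groups do not overlap. Of those shown, TPR over NUP153 is the pair that is lower in siHOTAIR, at a mean of 0.792 in siHOTAIR and 1.63 in siNC. Not shown are NUP214 over NUP88, which overlapped, and NUP205 over NUP93 and TPR over NUP50, which were also lower in siHOTAIR.

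Per kilobase of transcript, levels of the members spanned a wide range that the treatment shifted little. IPO5 had 1173 normalized counts per kilobase in siHOTAIR and 949 in siNC libraries, KPNA2 had 877 in siHOTAIR and 1004 in siNC, and NUP98 had 818 in siHOTAIR and 666 in siNC. In the order of the siHOTAIR libraries these were followed by KPNB1 (709 in siHOTAIR and 568 in siNC), NUP210 (529 in siHOTAIR and 696 in siNC) and RANGAP1 (508 in siHOTAIR and 372 in siNC). In siNC libraries the order was KPNA2, IPO5, NUP210, NUP98 and KPNB1, with RANGAP1 ranked 11 of 58. At the other end, again in siHOTAIR order, were NUP210L at 3.1 in siHOTAIR and 1.07 in siNC, KPNA5 at 2.76 in siHOTAIR and 2.88 in siNC, and KPNA7 at 2.15 in siHOTAIR and 1.62 in siNC. The basket partner NUP153 had 212 in siHOTAIR and 213 in siNC per kilobase, and TPR, whose transcript is long, had 95.04 in siHOTAIR and 196 in siNC. Spearman's rho of log2 fold change and coding length was -0.27 over 57 members, which share these libraries, and 0.0049 over 12743 features. The difference was not tested. The longest coding sequences are those of pore proteins, among them RANBP2, TPR, NUP214 and NUP205, so length was not separated from role.

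Sequence was examined for the members' 3′ untranslated regions (3′ UTRs), because the 7-base words AGAGAGA and AAGAGAG had been picked in an earlier look at the same fold changes as words in the 3′ UTRs of genes that fell. That choice means that the fold changes of genes with a word are not independent evidence. Of the 58 members, 9 hold a word in the 3′ UTR of the transcript used (15.5%), against 23.1% of features, and the words overlap each other in part. Of these 9, NUP205, NUP155 and IPO4 fell, TNPO2 rose and 5 did not pass. The windows below are from the GENCODE transcripts, sense strand, with the words in capitals, and show the called members that carry one.
NUP205: gctcttctatgAGAGAGAtgaattgggga
NUP155: gtaatagcaacAAGAGAGAagaagagtgg
IPO4: gcagccagtccAGAGAGAatagagcctgc
TNPO2: cctttttcctgAAGAGAGctgggtgtagc

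On GRCh38 the NUP205 window lies at chr7:135648571-135648599 on the plus strand, and its word starts at base 26 of a 3′ UTR of 201 bases. The others are on the minus strand, for NUP155 at chr5:37290533-37290561, for IPO4 at chr14:24180403-24180431 and for TNPO2 at chr19:12700368-12700396. NUP155 holds 4 starts of a word in a 3′ UTR of 3763 bases. The members that fell most, TPR, IPO8, XPO4 and IPO11, hold neither word in the transcript used. The median log2 fold change was -0.071 for members with a word and -0.0021 for those without, against -0.13 and 0.035 over all features.

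Genes of the same pathways that the naming rule leaves out also moved both ways. Of 15 Ran-binding and adaptor genes, 4 rose, 4 fell and 7 did not pass, with a median of -0.127. NUTF2, the carrier that imports Ran-GDP, rose by 0.50 (adjusted p = 6.7e-08) and NCBP2, of the cap-binding complex, had -0.56 (adjusted p = 1e-09) in the authors' deposited table. SENP2, a SUMO protease that docks at the pore, had -0.67 and the importin-like RANBP6 -0.76 in the authors' deposited table. Of 10 other pore and pore assembly genes, 3 rose and 3 fell, and among them the torsin TOR1A had 0.48 and its membrane cofactor TOR1AIP1 -0.44 in the authors' deposited table. LEMD2, which recruits ESCRT proteins to seal the envelope, had 0.42 in the authors' deposited table.

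Of 18 mRNA export genes, 3 rose, 3 fell and 12 did not pass, with a median of -0.0277. The RNA helicases DDX19B and DDX19A, which strip export proteins from mRNA at NUP214, had -0.85 and -0.39 in the authors' deposited table (adjusted p = 1.11e-08 and 0.000208), and as close paralogues they may share reads. THOC7, of the THO complex, rose by 0.50 (adjusted p = 7.11e-05) and ZC3H11A had -0.36 (adjusted p = 3.12e-05) in the authors' deposited table. Of 13 lamina and LINC complex genes, which lie under and across the envelope, 4 rose, none fell and 9 did not pass, with a median of 0.0501. LMNB2, lamin B2, rose by 0.61 (adjusted p = 2.87e-13), SUN2 by 0.44, the lamin B receptor LBR by 0.42 and BANF1 by 0.27 in the authors' deposited table. With 20% of all features called up and 20.4% called down, none of these 4 lists was tested against other genes.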

How the data were processed

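The deposited tables hold the authors' comparison of siHOTAIR with siNC and no column of a single library (0 columns). Per the submitters' processing notes the tools include HTSeq 0.6.1, DESeq and DESeq2 with the build hg19. Not given in the sources used here are the aligner, the annotation and whether counting used strand. Per the file headers the columns are those of a DESeq2 results table. The signal is, as deposited, a mean of size-factor-scaled counts over libraries. The log2 fold changes and standard errors are as deposited, shrunken toward 0, and the deposited score is their ratio. The p-values are the authors' Wald and Benjamini-Hochberg values as deposited. Rose and fell mean an adjusted p under 0.05 there. The edgeR test planned for counts per library was not run.

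Reads per library were solved from the deposited mean, fold change and standard error: each mean is a sum of whole reads times 5 steps, and the solution kept also gives the deposited log2 fold change under the authors' negative binomial model with its prior, within 1e-07. Up to a mean of 100 a single whole-number solution was taken. This gave reads for 19203 of 19276 features with a mean of at most 6000 (99.62%). Of these, 15529 had 1 solution that also gave the deposited log2 fold change. In simulated data 220 of 220 features were recovered, none wrong. Those data used the solver's own steps and model, so errors in the steps or the model were not tested. Normalized counts are the recovered reads divided by the recovered size factors. A library's group came from the sign of the fold change of features with a single read there, never from HOTAIR. The unit of replication is the library, and its replicate number is unknown. limma-voom and limma with a mean trend (limma 3.58.1, R 4.3.3) were alternatives over 14371 features. In simulated counts limma-voom called 70 of 100 changes of 0.5 and 96 of 100 of 1 on the log2 scale, with 17 calls among 14171 unchanged features. The changed features there all had a mean of at least 100, and were a far smaller share than the 47.2% called in the data. These rates do not cover members with few reads. Other alternatives were adjustment over every feature, a mean of at least 20, recentring on the median (0.0069), an adjusted p of 0.01, a size of 0.5, and leaving out each library.

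The named genes are 12 fixed members, the 10 that rose most and the 10 that fell most with a mean of at least 20, and per role the smallest p; lists beyond the members name up to 4 genes of smallest p. Members, lists, roles and rules were chosen with earlier results of these data known. Levels per kilobase use 1 transcript per gene of GENCODE 29.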

Additional observations from a re-analysis of the deposited data

How the results depend on the processing

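Across the alternatives without a size limit, 11 to 15 members rose and 15 to 22 fell, against 16 and 21. Asking also for a size of at least 0.5 on the log2 scale left 3 that rose and 7 that fell. Leaving out 1 library in limma-voom gave 11 to 15 that rose and 15 to 22 that fell. An adjusted p under 0.01 left 11 and 16. Among all features, 29% to 48.2% were called under the alternatives without a size limit. IPO7 was lost when adjusting over every feature, after recentring and in the limma fits over all libraries, NUP188 in the limma fits over all libraries and without each library except siHOTAIR C, and NUP210L with a mean of at least 20, which removes it. The median log2 fold change of the members was -0.0532 with a mean of at least 20 and -0.0479 after recentring, against -0.041.

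For the 26 named members, 224 of 234 recomputed fold changes with a test kept their direction and their side of the threshold, and 151 of 156 ratios of group means, which have no test, kept their direction. The 10 that changed sign belong to genes near 0 that did not pass, each without 1 library, as limma-voom and as a ratio of group means. Leaving out each library gave XPO1 -0.09572 to 0.02881, CSE1L -0.01478 to 0.08554 and NUP153 -0.02867 to 0.02689. XPO1 had 0.02874 and 0.02881 without siHOTAIR C. CSE1L had -0.01478 and -0.01333 without siHOTAIR A, and -0.008947 and -0.008955 without siNC B. NUP153 had 0.0123 and 0.01246 without siHOTAIR B, and 0.02683 and 0.02689 without siNC A. The other 5 were calls lost for NUP107, SEH1L and IPO11, given with those genes. Leaving out a siNC library leaves 1, assumed to vary like the other libraries.

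No paired analysis was possible because the recovered libraries carry no replicate number. With 3 libraries against 2, depth limits the genes with few reads most, as the standard errors of NUP210L, IPO11, KPNA5 and NUP62CL show. Counting of overlapping genes, pseudogenes (14 members have named ones in the RefSeq table) and near copies could move single values, and was not tested. The labelled siNC library that is not among the 5 was not analysed here.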
